A study of Mus musculus with 15 samples.

Results

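This account describes 9 enzymes of mitochondrial fatty acid oxidation, Cpt1a, Cpt2, Acadvl, Acadl, Acadm, Hadha, Hadhb, Acaa2 and Etfdh, in freshly sorted endothelial cells of 3 mouse organs. They were chosen by name from the pathway, with earlier results of these data known, so shares of all genes given beside them are no independent test. Each was measured by a probe set annotated with that gene alone, and all 9 were found among the 19938 genes of the arrays. The study asked how microvascular endothelium differs between brain, heart and liver. It used Tie2-GFP mice on the FVB background, 8 to 12 weeks old; these carry green fluorescent protein under the Tie2 promoter, Tie2 being the endothelial receptor encoded by Tek. Each of the 5 brain samples pooled 6 mice, each of the 5 heart samples 4 mice and each of the 5 liver samples 2 mice, with both sexes in equal number, and the sorted cells were hybridised to 1 array per pool. No group was treated. Brain was digested with collagenase, DNase and a short trypsin step, heart with collagenase alone and liver with dispase at room temperature followed by a density gradient. An effect of the organ cannot be told apart from one of its digestion or of the number of mice pooled. The Tie2 promoter is also active in some blood-forming cells, so the sort did not select on an endothelial protein itself.

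Long-chain fatty acids enter mitochondria as carnitine esters. Carnitine palmitoyltransferase 1 on the outer membrane makes the ester, the carrier Slc25a20 passes it across the inner membrane, and carnitine palmitoyltransferase 2 restores the acyl-CoA inside. A chain of enzymes then shortens the acyl-CoA in repeated rounds: an acyl-CoA dehydrogenase chosen by chain length, the trifunctional protein or its short-chain counterparts, and a thiolase. Electrons from the dehydrogenases pass through the electron transfer flavoprotein to Etfdh and on to ubiquinone. Endothelial cells are known to rely on glycolysis for much of their ATP and to use fatty acid oxidation in growth and in redox balance, whereas cardiomyocytes and hepatocytes burn fatty acids heavily.

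Median log2 values of single arrays ranged from 5.98 to 6.11. A list of 12 endothelial genes averaged between 10.40 and 10.71 on all 15 arrays, and Tek itself lay between 10.97 and 11.62, so the defining endothelial markers were present in all 3 organs. Markers of other cells were also present. The mean of 16 cardiomyocyte markers ran from 7.72 to 9.23 on the heart arrays, against 5.89 to 6.09 in brain and 5.66 to 5.91 in liver, with heart replicates 1 and 3 highest. The mean of 11 Kupffer cell and macrophage markers ran from 5.62 to 8.58 in liver, against 5.18 to 5.36 in brain and 5.24 to 5.48 in heart, with liver replicates 1, 3 and 4 at 8.02 or above and replicates 2 and 5 at 6.00 and 5.62. The mean of 16 hepatocyte markers was 6.93 to 7.60 in liver and at most 5.84 elsewhere. Of these 16, 13 passed as higher in liver than in each other organ (10.4% of all genes), and Ttr, Cyp2e1 and Pck1 did not. Ttr went another way, at 12.08 to 12.77 in brain, 7.93 to 9.98 in liver and 5.07 to 5.73 in heart. Cyp2e1 read 5.87 to 7.53 in brain, 5.95 to 7.135 in liver and 4.87 to 5.31 in heart. The source of the Ttr and Cyp2e1 RNA in brain was not tested. The mean of 11 pericyte and smooth muscle markers was 7.74 on brain replicate 1 and 6.17 to 6.88 on the other brain arrays, 6.70 to 8.05 in heart and 6.03 to 6.18 in liver. The mean of 10 fibroblast markers was 6.28 to 7.39 in heart, 5.48 to 5.91 in brain and 5.36 to 5.84 in liver, and 5 of the 10 passed as higher in heart against each other organ. The mean of 10 neuron markers was 5.31 to 5.44 in brain, 5.24 to 5.46 in heart and 4.62 to 5.00 in liver. That of 10 astrocyte markers was 5.67 to 6.00, 5.73 to 5.85 and 5.63 to 5.75, and that of 9 oligodendrocyte markers 5.85 to 6.05, 5.48 to 5.71 and 5.67 to 5.94. Of these 3 lists only Mal passed as higher in brain than in both organs (4.7% of all genes). The part of such RNA in the brain values was not tested. In a sorted bulk sample, fewer cells of a type and less RNA per cell cannot be told apart.

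Of the 9 enzymes, 4 were higher in brain endothelium than in both heart and liver endothelium: Cpt1a, Cpt2, Acadvl and Etfdh. Over all genes, 4.7% met the same rule (limma adjusted p under 0.05 against each). None of the 9 was lower in brain than in both (2.82% of all genes) and none higher in heart than in both (3.73%) or in liver than in both (10.4%). Acadvl alone was lower in liver than in both (5.64%). The largest difference was that of Cpt1a, the rate-limiting enzyme of mitochondrial fatty acid entry, which was 2.20-fold higher in brain than in heart and 1.88-fold higher than in liver. Hadha, Hadhb and Acaa2, the members that act in later steps of the cycle, showed no called difference between brain and either organ.

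**Figure D1:**
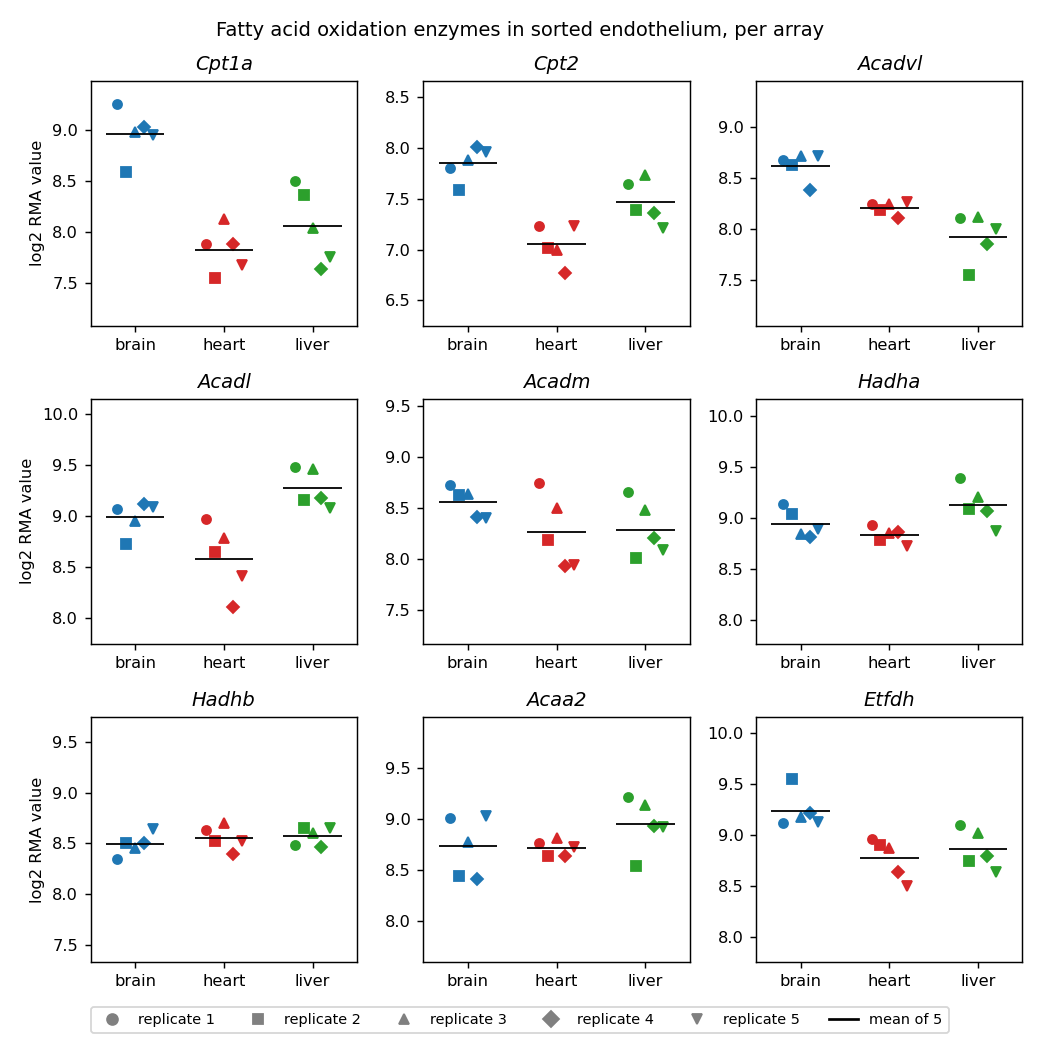
Log2 RMA values (vertical axes, each spanning 2.4 log2 units) of the 9 enzymes on each of the 15 arrays, by organ (horizontal axis). Symbols mark the replicate number and the black bars the mean of 5 arrays. The brain arrays of Cpt1a, Acadvl and Etfdh lie above every heart and liver array, while the 3 organs of Hadhb overlap.

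The 2 carnitine palmitoyltransferases were both highest in brain. Cpt1a (probe set 10460157) read 9.26, 8.59, 8.99, 9.03 and 8.95 on brain replicates 1 to 5; 7.88, 7.55, 8.13, 7.89 and 7.68 in heart, and 8.51, 8.36, 8.04, 7.64 and 7.76 in liver. The lowest brain array, replicate 2, still lay above the highest array of each other organ. The means were 8.97 ± 0.24, 7.83 ± 0.22 and 8.06 ± 0.38 (SD, n = 5 each). Brain exceeded heart by a log2 difference of 1.14 (SE 0.16, 95% interval 0.79 to 1.49, adjusted p = 6.12e-05) and liver by 0.91 (SE 0.16, interval 0.56 to 1.25, adjusted p = 0.000353). Heart and liver did not differ beyond their spread in Cpt1a (-0.23, interval -0.58 to 0.11, adjusted p = 0.325). Without heart replicates 1 and 3, the arrays with most cardiomyocyte RNA, brain exceeded heart by 1.26, and without liver replicates 1, 3 and 4 it exceeded liver by 0.91.

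Cpt2 (probe set 10514933), the inner partner of Cpt1a, was graded over the 3 organs, with brain highest, liver between and heart lowest. It read 7.80, 7.58, 7.88, 8.00 and 7.95 in brain, 7.23, 7.02, 7.00, 6.77 and 7.23 in heart and 7.64, 7.39, 7.73, 7.36 and 7.21 in liver. Brain and heart did not overlap, whereas brain replicate 2 lay below liver replicates 1 and 3. Brain was higher than heart by 0.80 (SE 0.12, adjusted p = 6.86e-05), a 1.74-fold difference, and higher than liver by 0.38 (SE 0.12, adjusted p = 0.0214), or 1.30-fold. Heart was lower than liver by a log2 difference of -0.42 (interval -0.66 to -0.17, adjusted p = 0.011), which made Cpt2 the 1 member of the 9 that was lower in heart than in both other organs; over all genes 3.27% met that rule. The difference from liver was the less firm of the brain calls. It was lost without brain replicate 4 (0.34, adjusted p = 0.0583), brain replicate 5 (0.35, 0.0518), liver replicate 4 (0.35, 0.0533) or liver replicate 5 (0.31, 0.0612), and when arrays were centred on the endothelial list (0.29, adjusted p = 0.163). The call of heart below liver was lost without liver replicates 1, 3 and 4 (-0.25, adjusted p = 0.284).

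The 3 acyl-CoA dehydrogenases of the set, which take fatty acyl chains of different length, did not follow 1 order. Acadvl (probe set 10387768), which acts on very long chains at the inner membrane, fell from brain over heart to liver. It read 8.68, 8.62, 8.71, 8.38 and 8.71 in brain, 8.25, 8.19, 8.24, 8.11 and 8.27 in heart and 8.11, 7.55, 8.12, 7.86 and 8.00 in liver. All brain arrays were above all heart and liver arrays. The difference was 0.41 from heart (SE 0.10, adjusted p = 0.00955) and 0.69 from liver (SE 0.10, adjusted p = 4.51e-05), 1.33-fold and 1.62-fold. Without replicates 1 and 3 of every organ, which leaves 3 arrays a group, the difference from heart was 0.39 and missed the threshold (adjusted p = 0.104). Heart was above liver by 0.28 (SE 0.10, adjusted p = 0.0498), at the edge of the threshold; that call was lost in 12 of the 15 fits that left out 1 array, with adjusted p-values over the 15 fits from 0.0319 to 0.127 and the smallest difference, 0.19, without liver replicate 2, and when arrays were centred on their own median (0.23, adjusted p = 0.122) or on the endothelial list (0.22, adjusted p = 0.229), and without heart replicates 1 and 3 (0.26, adjusted p = 0.16).

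Acadl (probe set 10355246), which acts on long chains, was lowest in heart and highest in liver. It read 9.07, 8.73, 8.95, 9.11 and 9.09 in brain, 8.97, 8.65, 8.79, 8.10 and 8.41 in heart, and 9.48, 9.16, 9.46, 9.18 and 9.08 in liver. Every heart array was below every liver array, as in 11.8% of all genes, with a log2 difference of -0.69 (SE 0.14, interval -0.98 to -0.39, adjusted p = 0.00111), or 1.61-fold. Without liver replicates 1, 3 and 4 that difference was -0.53 (adjusted p = 0.0692). Brain did not differ from heart by the threshold (0.41, SE 0.14, adjusted p = 0.0608), nor from liver (-0.28, adjusted p = 0.173). The comparison with heart passed without heart replicate 1 (0.50, adjusted p = 0.0162) or without brain replicate 2 (0.47, adjusted p = 0.0378).

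Acadm (probe set 10502951), the medium-chain dehydrogenase, varied more within heart than between organs. Its brain arrays read 8.73, 8.63, 8.64, 8.41 and 8.40, its heart arrays 8.75, 8.19, 8.50, 7.93 and 7.94 and its liver arrays 8.66, 8.01, 8.48, 8.21 and 8.09. The 3 organs overlapped, since heart replicate 1 was the highest of all 15 arrays and heart replicate 4 the lowest. The differences were 0.30 for brain over heart (interval -0.03 to 0.63, adjusted p = 0.238), 0.27 for brain over liver (interval -0.06 to 0.60, adjusted p = 0.25) and -0.03 for heart against liver (interval -0.36 to 0.30, adjusted p = 0.922). Without heart replicates 1 and 3 brain exceeded heart by 0.54 (adjusted p = 0.0159), and without replicates 1 and 3 of every organ by 0.46 (adjusted p = 0.021).

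Etfdh (probe set 10498837), which hands the electrons of all these dehydrogenases to ubiquinone, was higher in brain. It read 9.12, 9.55, 9.17, 9.22 and 9.12 in brain, 8.96, 8.90, 8.87, 8.63 and 8.50 in heart and 9.10, 8.74, 9.02, 8.79 and 8.64 in liver. The brain arrays lay above all others, although brain replicate 1 and liver replicate 1 were close. The difference was 0.46 from heart (SE 0.12, adjusted p = 0.00959) and 0.38 from liver (SE 0.12, adjusted p = 0.0216), 1.38-fold and 1.30-fold. Brain replicate 2 stood apart, and without it the difference from liver was 0.30 with adjusted p = 0.0654. That call was also lost without liver replicate 2 (0.35, adjusted p = 0.0507) or liver replicate 5 (0.32, adjusted p = 0.0604), and with arrays centred on the endothelial list (0.29, adjusted p = 0.113) or on their own median (0.34, adjusted p = 0.0533). Heart and liver differed by -0.08 (interval -0.33 to 0.16, adjusted p = 0.646).

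**Figure D2:**
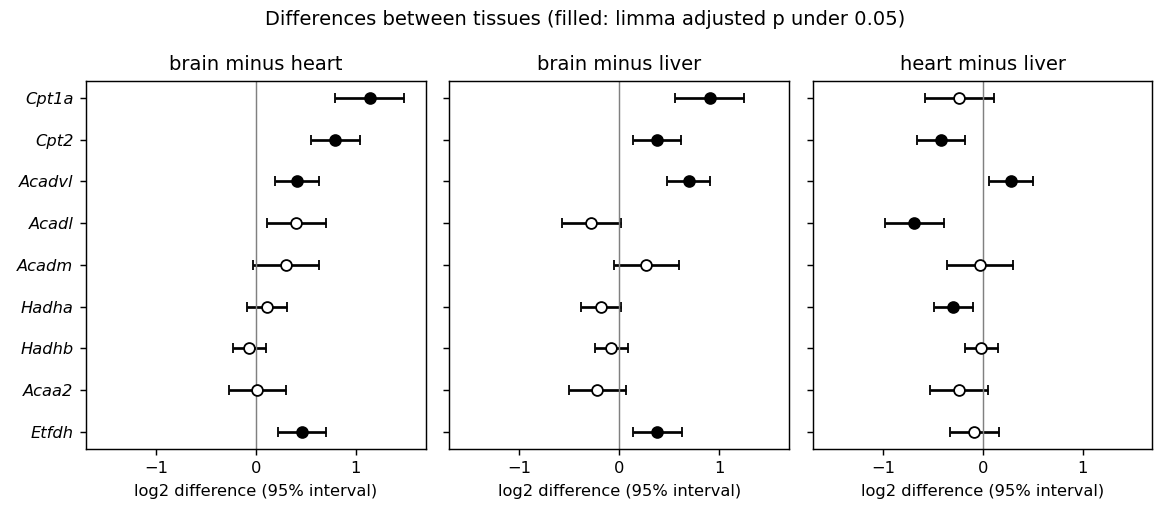
Log2 differences of the 9 enzymes between organs (horizontal axes) with 95% intervals from the limma fit; filled points have an adjusted p under 0.05. Cpt1a, Cpt2, Acadvl and Etfdh are filled on the positive side in both comparisons with brain, from 0.38 to 1.14, and the intervals of Hadhb include 0 in all 3.

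For the members that act in later steps of the cycle, Hadha, Hadhb and Acaa2, no difference between brain and another organ passed the test. This does not hold for every later-step gene outside the 9, such as Hadh, given below. Hadha and Hadhb are the 2 subunits of the mitochondrial trifunctional protein, which hydrates, oxidises and cleaves long-chain intermediates. Hadha (probe set 10528929) averaged 8.95 ± 0.14 (brain), 8.84 ± 0.08 (heart) and 9.13 ± 0.19 (liver) (SD, n = 5). The brain intervals for Hadha ran from -0.09 to 0.31 against heart and -0.38 to 0.02 against liver. Heart was lower than liver in Hadha by a log2 difference of -0.29 (SE 0.09, adjusted p = 0.0277). That call was lost without heart replicate 2 (-0.28, adjusted p = 0.057), heart replicate 5 (-0.27, 0.0661), liver replicate 1 (-0.23, 0.0797) or liver replicate 3 (-0.27, 0.0666), and the value was -0.15 without liver replicates 1, 3 and 4 (adjusted p = 0.465).

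Hadhb had the smallest spread of organ means of the 9 enzymes, at 8.49 ± 0.11 (brain), 8.56 ± 0.12 (heart) and 8.57 ± 0.09 (liver) (SD, n = 5 each). Its organ means spanned 0.08 log2 units, below its spread of 0.11 between arrays of 1 organ. No difference exceeded 0.08 in size, and the intervals reached no further than -0.25 and 0.15. The array holds 2 probe sets named Hadhb alone. The one used, 10474379, and the other, 10520467, had nearly the same organ means (8.44, 8.49 and 8.52 for the second), so the choice between them did not alter the result. Acaa2 (probe set 10456699), the thiolase that releases acetyl-CoA, was 8.73 ± 0.30, 8.72 ± 0.08 and 8.95 ± 0.26 in brain, heart and liver. Its brain arrays ran from 8.41 to 9.03 and covered the whole heart range of 8.63 to 8.82. Its differences were 0.02 for brain over heart (interval -0.27 to 0.30, adjusted p = 0.96), -0.22 for brain against liver (interval -0.51 to 0.07, adjusted p = 0.299) and -0.23 for heart against liver (interval -0.52 to 0.05, adjusted p = 0.228).

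Counted by comparison, 4 of the 9 enzymes were higher in brain than in heart and 0 lower, where 8.29% of all genes were higher and 7.11% lower (15.4% in either direction). The enzymes' median difference was 0.41, against -0.03 over all genes. Against liver, 4 of 9 were higher in brain and 0 lower, where 11.1% of all genes were higher and 14% lower (25.1% in either direction), and the median difference was 0.27, against 0.00 over all genes (-0.0022). These comparisons share the brain arrays. Between heart and liver 1 enzyme was higher in heart and 3 were lower, where 11.5% of all genes were higher and 16.3% lower (27.8% in either direction), with a median difference of -0.23 against 0.03. By the plain overlap of arrays, 4 enzymes had every brain array above every heart array, as did 6.64% of all genes. In 3 of them, Acadvl, Cpt1a and Etfdh, every brain array was also above every liver array, which held for 8.62% of all genes. No enzyme had every brain array below every heart array (6.17% of all genes) or liver array (10.3%), or every heart array above every liver array (8.81%). The count of 4 against liver fell to 2 when arrays were centred on the endothelial list and without liver replicate 5, Cpt1a and Acadvl being the calls that remained in both. Over all genes the number higher in brain than in liver was 2204 in the main fit. It was 1552 with that centring and 2138 without liver replicate 5.

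The 4 enzymes that were higher in brain start from promoters of differing make-up, and the trifunctional protein genes share one. The 250 bases upstream of the gene start are shown for these genes, from RefSeq's GRCm38.p6 assembly, each read 5′ to 3′ on the strand of the gene; 8 of the 9 enzymes were matched in that table and shown or searched. Capitals mark, on either strand, the nuclear receptor half-site AGGTCA (reverse TGACCT), which PPAR and ERR factors can bind, the GC box GGGCGG (reverse CCGCCC) and the CCAAT box. Cpt1a lies on the plus strand at chr19:3323051-3323300, Cpt2 on the minus strand at chr4:107923590-107923839, Acadvl on the minus strand at chr11:70015429-70015678 and Etfdh on the minus strand at chr3:79628768-79629017.
Cpt1a: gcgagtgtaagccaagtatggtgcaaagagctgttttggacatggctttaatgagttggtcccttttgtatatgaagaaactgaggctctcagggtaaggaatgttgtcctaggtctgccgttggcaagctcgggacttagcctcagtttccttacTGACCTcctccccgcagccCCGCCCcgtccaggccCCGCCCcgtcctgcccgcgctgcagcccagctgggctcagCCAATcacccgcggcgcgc
Cpt2: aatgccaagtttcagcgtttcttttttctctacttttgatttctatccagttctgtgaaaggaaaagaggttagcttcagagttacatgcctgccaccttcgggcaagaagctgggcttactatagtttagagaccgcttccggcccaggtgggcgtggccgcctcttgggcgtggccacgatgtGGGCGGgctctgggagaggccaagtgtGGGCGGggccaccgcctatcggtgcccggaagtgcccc
Acadvl: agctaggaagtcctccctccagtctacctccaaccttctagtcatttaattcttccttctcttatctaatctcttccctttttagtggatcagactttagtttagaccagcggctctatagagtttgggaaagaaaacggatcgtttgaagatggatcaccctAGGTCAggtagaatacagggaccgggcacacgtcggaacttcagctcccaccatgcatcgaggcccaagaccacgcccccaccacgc
Etfdh: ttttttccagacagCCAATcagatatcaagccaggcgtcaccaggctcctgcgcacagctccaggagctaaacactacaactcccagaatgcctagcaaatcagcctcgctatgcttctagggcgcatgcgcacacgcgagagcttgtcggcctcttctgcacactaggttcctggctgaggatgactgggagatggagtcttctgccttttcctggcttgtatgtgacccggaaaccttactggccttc

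Hadha and Hadhb start back to back on chromosome 5, with 272 bases between their first transcribed bases, so that their upstream windows overlap over 228 bases. The stretch is shown because the genes share it while Hadha differed between heart and liver and Hadhb did not pass the test there; that contrast between the genes was not itself tested. It is read on the strand of Hadhb, at chr5:30155003-30155252, with the same marks.
Hadhb: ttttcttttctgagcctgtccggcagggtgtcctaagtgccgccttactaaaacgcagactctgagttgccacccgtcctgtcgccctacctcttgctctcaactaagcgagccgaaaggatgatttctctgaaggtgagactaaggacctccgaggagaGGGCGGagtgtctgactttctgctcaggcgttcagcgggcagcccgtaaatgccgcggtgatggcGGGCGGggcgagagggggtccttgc

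The half-site AGGTCA was found, on either strand, in 3 of the 8 windows (Acadm, Acadvl and Cpt1a), and in 14% of the 32851 RefSeq promoter windows of the same length. The longer form AAGGTCA, which contains the half-site, was in 1 (Acadm) and in 4.08% of all windows. The classical PPAR element, a direct repeat of AGGTCA with 1 base of any kind between the copies, was in 0 of the 8 and in 0.0335% of all windows. The GC box was in 5 (Acadl, Cpt1a, Cpt2, Hadha and Hadhb) against 32.7%, and the CCAAT box in 2 (Cpt1a and Etfdh) against 33.8%. Among the 4 genes that were higher in brain, the half-site, the GC box and the CCAAT box were each in 2, and no mark was in all 4. These are matches of letters in a short window and not binding sites.

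On the heart arrays 2 of the 9 enzymes took the array order of the cardiomyocyte markers. The mean of the 16 markers was 9.23, 8.30, 8.82, 7.72 and 7.74 on heart replicates 1 to 5, and all 16 were higher in heart than in brain and than in liver. Acadm and Acadl, whose values are given above, took the same order over the 5 heart arrays as the markers, with replicate 1 highest, then 3, 2, 5 and 4. Cpt1a was highest on replicate 3 and lowest on replicate 2, and Cpt2 was as high on replicate 5 as on replicate 1 (7.23 each). Of the 9 enzymes 5 were highest on heart replicate 1 and 3 on replicate 3, while 6 were lowest on replicate 4. The share of all genes with such orders or highest arrays was not counted, so these counts cannot be read as particular to the enzymes. Without heart replicates 1 and 3 the number higher in brain than in heart was 6 (Acadl and Acadm added), and the median difference 0.54. In that fit 7.16% of all genes were higher in brain than in heart. Most of the enzymes were highest on these 2 arrays, so leaving them out of heart alone was likely to widen the difference. Without replicates 1 and 3 of every organ 5 enzymes were higher in brain than in heart (5.74% of all genes), and the median difference was 0.46. The pericyte and smooth muscle mean (8.05, 7.43, 7.75, 7.30 and 6.70 on heart replicates 1 to 5) and the fibroblast mean (7.39, 6.71, 6.90, 6.69 and 6.28) were also highest on replicates 1 and 3. The part of cardiomyocyte, mural cell or fibroblast RNA in the heart values was not tested. Cpt1b, the muscle form of carnitine palmitoyltransferase 1, shares its probe set with another gene symbol and was not used here.

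**Figure D3:**
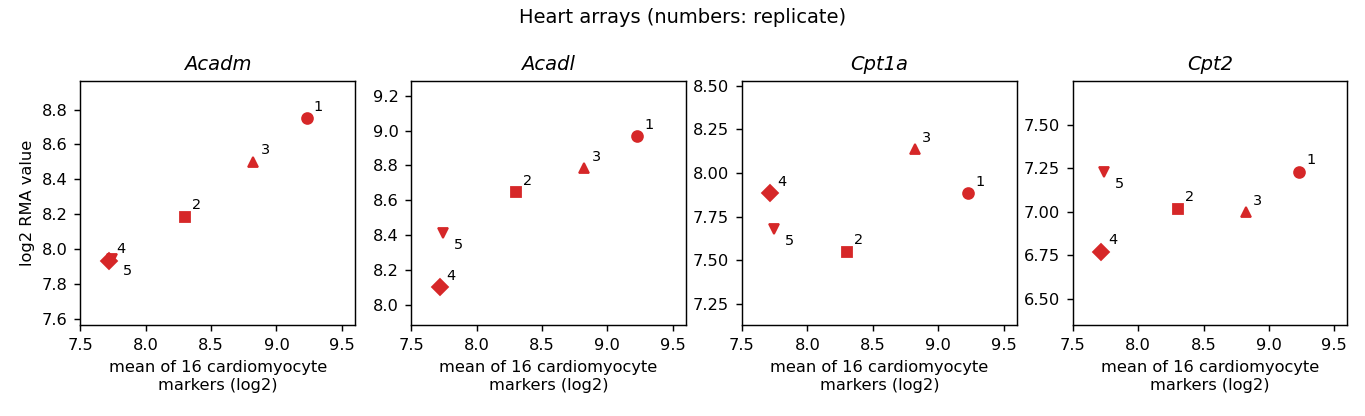
Log2 RMA values of 4 enzymes (vertical axes) on the 5 heart arrays against the mean log2 value of 16 cardiomyocyte markers on the same array (horizontal axes); numbers are replicates. Acadm and Acadl rise from replicates 4 and 5 to replicate 1 in the order of the markers, and Cpt1a and Cpt2 take other orders.

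On the liver arrays most of the enzymes were highest on replicate 1 or 3. The exception was Hadhb, highest on replicate 2 (8.65). Cardiomyocyte markers there were between 5.66 and 5.91. Of the 9, 6 were highest on liver replicate 1 and 2 on replicate 3, and none of the 9 was lowest on either. As for heart, the share of all genes with this pattern was not counted. The mean of the 9 enzymes was 8.73, 8.39, 8.64, 8.39 and 8.36 on liver replicates 1 to 5. The Kupffer cell and macrophage markers were high on replicates 1, 3 and 4 (8.02, 8.58 and 8.21) and low on 2 and 5. Replicate 5 was lowest in both the enzyme mean and the macrophage markers. The hepatocyte markers were highest on replicate 5 (7.60). Without liver replicates 1, 3 and 4 the median of brain over liver was 0.51 with 4 enzymes higher, and 1 enzyme, Acadvl, was called between heart and liver. In that fit 8.49% of all genes were higher in brain than in liver, and 16.5% were called between heart and liver. Most of the enzymes were highest on liver replicate 1 or 3, so leaving these out of liver alone was likely to widen the difference from brain. Without replicates 1 and 3 of every organ the median of brain over liver was 0.38, with 5 enzymes higher in brain (8.42% of all genes). The part of macrophage and hepatocyte RNA in the liver values was not tested. In brain the mean of the 9 enzymes was 8.80, 8.63, 8.71, 8.65 and 8.75 on replicates 1 to 5. Brain replicate 1, with the most pericyte and smooth muscle RNA, held the highest value of 3 enzymes and the lowest of 2. The mean of the enzymes was thus highest on replicate 1 in all 3 organs (8.80 in brain, 8.49 in heart and 8.73 in liver). What same-numbered arrays may share was not tested.

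Other genes of the pathway were taken from lists written from general knowledge. Signed differences are brain minus heart, brain minus liver or heart minus liver, so a negative value means higher in the organ named last. Of 19 other measured genes of mitochondrial oxidation, 5 were higher in brain than in heart and 0 lower (median 0.20). Against liver 4 were higher in brain and 5 lower (median 0.03), and between heart and liver 1 was higher in heart and 9 lower (median -0.21). The 3 genes higher in brain than in both organs were Slc25a20, Eci2 and Hadh (4.7% of all genes met that rule). Another 4, Acad11, Acadsb, Acat1 and Hsd17b10, were higher in liver than in both (10.4% of all genes). Slc25a20, the carrier between both carnitine palmitoyltransferases, was 7.40 ± 0.30 in brain, 6.54 ± 0.17 in heart and 6.70 ± 0.29 in the liver (SD, n = 5 each), higher in brain by 0.86 (adjusted p = 0.000465) and 0.69 (adjusted p = 0.00186). Eci2, which shifts double bonds of unsaturated chains, was 8.71 ± 0.13, 7.70 ± 0.26 and 8.17 ± 0.29, higher in brain by 1.01 and 0.55 (adjusted p = 3.93e-05 and 0.00661). Heart was also below liver in Eci2 (-0.46, adjusted p = 0.0186), a call lost without heart replicate 4 (-0.40, adjusted p = 0.0556), heart replicate 5 (-0.40, 0.0518) or liver replicate 1 (-0.36, 0.0579). Hadh, the short-chain hydroxyacyl-CoA dehydrogenase, named after its values were seen, was 7.93 ± 0.24, 7.10 ± 0.10 and 7.18 ± 0.34, higher in brain by 0.84 and 0.75 (adjusted p = 0.000359 and 0.000556).

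The electron transfer flavoprotein feeds Etfdh. Its subunit Etfb was 9.43 ± 0.26 in brain, 8.79 ± 0.25 in heart and 9.40 ± 0.20 in the liver. Heart was lower in Etfb than brain (brain minus heart 0.64, adjusted p = 0.00331) and than liver (-0.61, adjusted p = 0.00285), whereas brain minus liver was 0.03 (adjusted p = 0.928). The other subunit, Etfa, was 9.32 ± 0.12, 9.12 ± 0.14 and 9.33 ± 0.10, with no called difference (adjusted p = 0.128, 0.977 and 0.0776). Cpt1c, the form of Cpt1 known from neurons, was 5.93 ± 0.08, 5.98 ± 0.02 and 5.87 ± 0.16 and passed in no comparison (smallest adjusted p = 0.298). Acad11, another acyl-CoA dehydrogenase, was higher in liver than in brain (-0.68, adjusted p = 0.00151) and than in heart (-0.95, adjusted p = 5.89e-05). Acot13, an acyl-CoA thioesterase, read 8.70 on heart replicate 1 and 7.06 to 7.70 on the other heart arrays, and heart was below liver (-0.86, adjusted p = 0.00728). Without heart replicate 1, Acot13 was also higher in brain than in heart (0.64, adjusted p = 0.00165) and lower than in liver (-0.50, adjusted p = 0.00421).

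**Figure D4:**
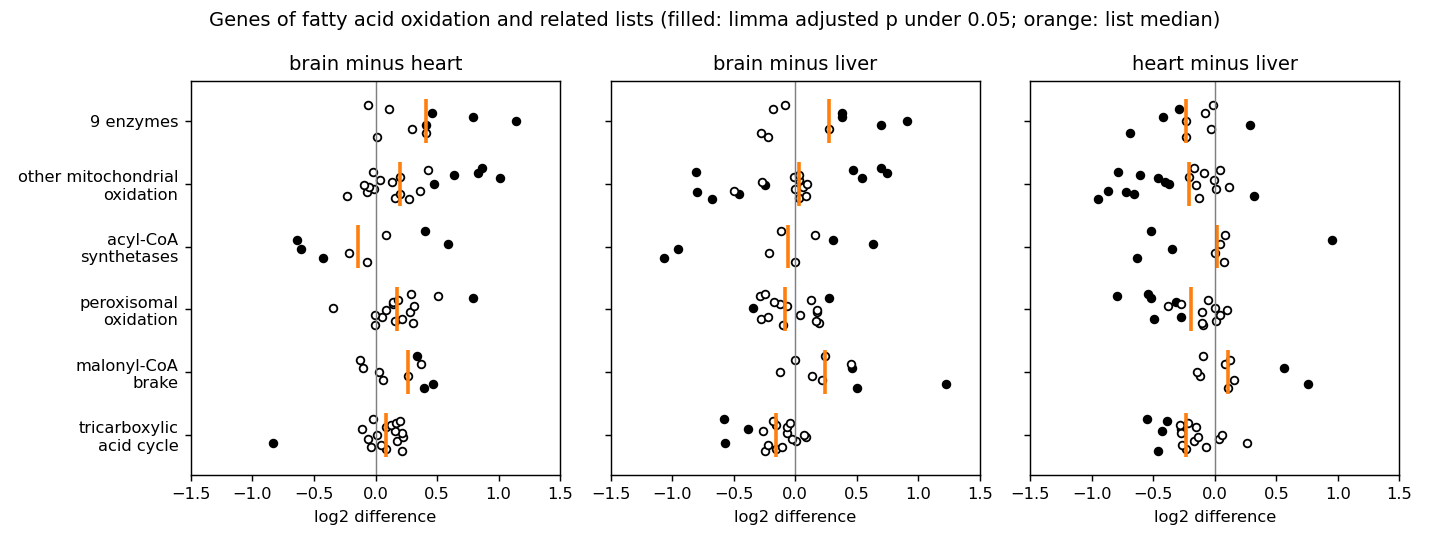
Log2 differences between organs (horizontal axes) of every measured gene in 6 lists, 1 point a gene; filled points have a limma adjusted p under 0.05 and orange bars are list medians. The 9 enzymes have the highest median of the 6 lists in both comparisons with brain (0.41 and 0.27), and the tricarboxylic acid cycle genes lie close to 0 for brain against heart (median 0.09).

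The steps before and beside mitochondrial oxidation took several orders. Of 8 measured synthetases and binding proteins of acyl-CoA, 2 were higher and 3 lower in brain than in heart, and 2 higher and 2 lower than in liver. Acsl5, a long-chain acyl-CoA synthetase, was lowest in brain at 8.55 ± 0.14, against 9.16 ± 0.22 in heart and 9.51 ± 0.11 in liver (differences of -0.61 and -0.96, adjusted p = 0.000336 and 9.69e-07). Acsf2, another synthetase, was higher in liver than in brain (-1.06, adjusted p = 3.36e-06) and heart (-0.63, adjusted p = 0.000897); its call of brain below heart (-0.43, adjusted p = 0.0268) was lost in 6 of the 15 fits without 1 array. Acss1, the mitochondrial acetyl-CoA synthetase, was highest in heart at 6.52 ± 0.13, against 5.88 ± 0.08 in brain and 5.57 ± 0.14 in liver (adjusted p = 2.1e-05 and 1.05e-07). Of 16 peroxisomal genes 1 was higher in brain than in heart and 0 lower, 1 higher and 1 lower than in liver, and 0 higher and 6 lower in heart than in liver. Hsd17b4, the peroxisomal bifunctional enzyme, was 9.14 ± 0.02, 8.35 ± 0.12 and 8.86 ± 0.22, with brain 0.79 above heart (adjusted p = 8.93e-06). Its difference of 0.27 from liver (adjusted p = 0.046) was lost in 12 of the 15 fits without 1 array. Phyh and Scp2, which handle branched chains, were lower in heart than in liver (-0.79 and -0.54, adjusted p = 0.00337 and 0.00153).

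Genes of malonyl-CoA, the inhibitor of Cpt1, were measured alongside. Of 9 genes of this list, 3 were higher in brain than in heart and 3 than in liver, and 0 were lower in either comparison. Acacb, the acetyl-CoA carboxylase at the mitochondrial surface whose product inhibits Cpt1, was 7.74 ± 0.19 in brain, 7.27 ± 0.07 in heart and 6.51 ± 0.19 in the liver. Brain exceeded heart in Acacb by 0.46 (adjusted p = 0.00377) and liver by 1.22 (adjusted p = 3.88e-08), so that Acacb, like Cpt1a, was highest in brain. Acaca, the cytosolic form, was higher in brain by 0.39 and 0.50 (adjusted p = 0.00269 and 0.000151). Without replicates 1 and 3 of every organ the calls of brain over heart were lost for Acacb (0.45, adjusted p = 0.0634) and Acaca (0.30, adjusted p = 0.0908). Prkaa2, a catalytic subunit of AMP kinase, was higher in heart than in liver (0.56, adjusted p = 0.014). Its call of brain over liver (0.46, adjusted p = 0.0449) was lost in 8 of the 15 fits without 1 array. Of the ketone body genes 2 of 4 were measured, and Oxct1, which uses ketone bodies, was lower in brain than in liver (-0.44, adjusted p = 0.0338), a call lost in 6 of the 15 fits.

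Of 15 transcriptional regulators of the pathway 2 were higher and 1 lower in brain than in heart, and 3 higher and 3 lower than in liver. Pparg, known for fatty acid uptake and storage, was 10.12 ± 0.26 in heart, 5.52 ± 0.22 in brain and 6.69 ± 0.26 in liver, 24.3-fold above brain (adjusted p = 1.21e-13). Ppard, a fatty acid receptor that drives oxidation genes in many tissues, named after its values were seen, was higher in brain at 7.42 ± 0.16 than in heart at 6.74 ± 0.08 and liver at 6.77 ± 0.12 (adjusted p = 1.24e-05 and 1.08e-05). Ppara, the main driver of these enzymes in hepatocytes, was 4.94 ± 0.26, 4.71 ± 0.04 and 4.60 ± 0.13, and its call of brain over liver (0.34, adjusted p = 0.0258) was lost in 4 of the 15 fits without 1 array. Ppargc1a, a coactivator of mitochondrial genes, read 6.49 on brain replicate 1 and 4.68 to 5.00 on the other brain arrays. Brain exceeded liver by 0.88 (adjusted p = 0.026), and by 0.56 without brain replicate 1 (adjusted p = 0.0302). With all probe sets of Ppargc1a averaged the difference was 0.53 (adjusted p = 0.043). The call was lost without liver replicate 1 (adjusted p = 0.0539) or replicate 3 (adjusted p = 0.052). All organ means of Ppara, Ppargc1a and Prkaa2 lay below the array medians of 5.98 to 6.11, so these genes were read at low levels. The means of Cpt1c in all organs (5.87 to 5.98) were also no higher than these medians. The same held for Pparg in brain (5.52), Acss1 in brain and liver (5.88 and 5.57), Acad11 in brain and heart (5.95 and 5.67) and Angptl4 in liver (5.92). The fold of Pparg was thus taken against a low reading. Rxra, the partner of the PPAR factors, was higher in liver at 8.04 ± 0.27 than in brain at 6.95 ± 0.32 and heart at 7.30 ± 0.13 (adjusted p = 1.46e-05 and 0.000892).

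Of 11 other known PPAR target genes measured, 0 were higher in brain than in heart and 1 lower, and 1 was higher and 2 lower than in liver. Pdk4, which limits glucose oxidation, was higher in liver at 8.81 ± 0.22 than in brain at 7.65 ± 0.29 and heart at 7.20 ± 0.91 (adjusted p = 0.00908 and 0.000649). Heart replicates 1 and 3 read 8.38 and 7.90 in Pdk4 and the other heart arrays 6.20 to 6.93, and without those replicates brain was higher than heart by 1.08 (adjusted p = 0.000551). Plin2, a coat protein of lipid droplets, was higher in liver than in brain and heart (-0.99 and -0.83, adjusted p = 2.09e-05 and 0.000153). Angptl4, an inhibitor of lipoprotein lipase, was lower in liver at 5.92 ± 0.40 than in brain at 6.83 ± 0.27 and heart at 6.88 ± 0.45 (adjusted p = 0.00349 and 0.00231). Without replicates 1 and 3 of every organ, heart exceeded liver in Angptl4 by 0.40 (adjusted p = 0.159).

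Genes of the tricarboxylic acid cycle burn the acetyl-CoA of fatty acid oxidation in the same organelle. Of 17 measured, 0 were higher and 1 lower in brain than in heart (median 0.09), 0 higher and 3 lower than in liver (median -0.15), and 0 higher and 5 lower in heart than in liver (median -0.24). Cs, citrate synthase, was 9.07 ± 0.25 in brain, 8.86 ± 0.08 in heart and 9.32 ± 0.20 in the liver, with 0.22 between brain and heart (adjusted p = 0.258) and -0.24 between brain and liver (adjusted p = 0.158). The latter passed without brain replicate 2 (-0.34, adjusted p = 0.0284). Idh2, an isocitrate dehydrogenase, was lower in brain at 7.65 ± 0.21 than in heart at 8.48 ± 0.24 and liver at 8.22 ± 0.28 (adjusted p = 0.00038 and 0.00562). Suclg2, a succinyl-CoA ligase subunit, was higher in liver at 8.66 ± 0.18 than in brain at 8.08 ± 0.34 and heart at 8.10 ± 0.25 (adjusted p = 0.00853 and 0.011). Without liver replicates 1, 3 and 4, which leaves 2 liver arrays, these calls against liver were lost: Acot13, Acsl5, Cs, Eci2, Etfb, Phyh, Prkaa2, Rxra and Suclg2 from heart, and Angptl4, Idh2, Oxct1, Pdk4, Ppara, Ppargc1a, Prkaa2 and Suclg2 from brain (adjusted p-values from 0.061 to 0.446). Among these the difference shrank by over 1.5 times in Eci2 (-0.24) and Rxra (-0.45) from heart and in Idh2 (-0.28) and Oxct1 (-0.27) from brain. In the others it moved by less, as in Pdk4 (-1.12) and Ppargc1a (0.85) from brain. The difference of Suclg2 (-0.58 from brain) did not shrink.

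Across the 15 arrays the gene whose values lay closest to those of Cpt1a, after each gene was centred on its own mean, was Slc25a20, with a root mean square difference of 0.19 log2 units. Next came Cnnm2, linked to magnesium transport, at 0.20. Cnnm2 was 8.03 ± 0.25 in brain, 6.95 ± 0.24 in heart and 7.38 ± 0.35 in the liver.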

How the data were processed

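Gene expression was measured on 15 Affymetrix mouse gene arrays, 5 each from brain, heart and liver endothelium. The deposited log2 values, for 35556 probe sets, were made by the authors with RMA and Affymetrix Power Tools per the submitters' processing notes, without stated versions or build. RMA equalises the distributions of the arrays and compresses large differences. The values were used as deposited, and the number of arrays limits the precision. GEO's annotation gave 1 gene symbol to 21789 probe sets and several to 1621, which were left out, as were the 12146 that are unnamed here. Of those with 1 symbol, 21698 matched a RefSeq gene of GRCm38.p6. For the 999 genes with several probe sets the highest mean was kept, leaving 19938 genes.

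One limma 3.58.1 model (R 4.3.3, lmFit and eBayes) with a mean per organ was fitted to all arrays (12 residual and 4.75 prior degrees of freedom), and tested on simulated data. P-values were adjusted by Benjamini-Hochberg over all genes in each comparison, with a threshold of 0.05; adjusted p-values, standard errors and 95% intervals come from it. The pools are separate samples per the labels. The members and gene lists were chosen with earlier results of these data known. All 9 members are described; beside them stand 9 genes fixed by name (Cpt1b was not measurable alone) and, per list, up to 3 genes with the largest called difference. The genes most like Cpt1a were ranked by root mean square difference over the arrays; 1 of the 3 is not reported here. Alternatives were the replicate block, the mean of all probe sets, a filter at a mean of 6, both centrings, a fit of 2 organs, a trend and robust prior, each array left out, and, added after seeing the data, the marker-rich arrays left out.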

Additional observations from a re-analysis of the deposited data

Results flagged for a closer look

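In 5 of 120 groups of 5 arrays, 1 array lay far from the rest, its gap to the nearest array exceeding 0.71 of the group's range (Dixon's test at the 95% level, which flags about 1 group in 20 by chance). Acadvl in brain was 8.38 on replicate 4, below the 8.62 to 8.71 of the other brain arrays, and Etfdh in brain was 9.55 on replicate 2, above 9.12 to 9.22. Ppargc1a in brain was 6.49 on replicate 1, the brain array with the highest pericyte and smooth muscle markers (7.74); heart replicates 1 and 3 were higher in those markers (8.05 and 7.75). Etfa in liver was 9.50 on replicate 5, and Prkaa2 in liver was 4.79 on replicate 2.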

How the results depend on the processing

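The median brain over heart difference of the 9 enzymes was positive under every alternative run, from 0.29 to 0.42 when 1 array was left out. It was 0.54 without heart replicates 1 and 3, and 0.46 without replicates 1 and 3 of every organ. With 1 array left out, 4 to 5 enzymes were called. The brain over liver median was 0.20 to 0.37 without 1 array, and 0.51 without liver replicates 1, 3 and 4. It was 0.38 without replicates 1 and 3 of every organ. The number called was 2 to 4 without 1 array and 2 with arrays centred on the endothelial list. With that centring 1552 of all genes were higher in brain than in liver, against 2204 in the main fit. The heart against liver median was -0.26 to -0.12 without 1 array, and -0.10 without liver replicates 1, 3 and 4. Between heart and liver 2 to 4 enzymes were called without 1 array, 1 without liver replicates 1, 3 and 4 and 1 without replicates 1 and 3 of every organ, settings that test fewer arrays. Over all genes the counts called without 1 array were 2675 to 3138, 4495 to 5164 and 4798 to 5633 in the same order, and for heart against liver 3285 and 3275 in those last settings, against 5538. Centring on the endothelial list changed the share of called genes that were higher from 44.05% to 31.97% (brain against liver) and from 41.28% to 29.59% (heart against liver). With the replicate number as a block 6, 5 and 4 enzymes were called, where 16.9%, 26.5% and 29.8% of all genes were. Acadl and Acadm were added against heart and Acadm against liver. Same-numbered arrays of different organs correlated in their deviations at -0.001 to 0.204, with 6 of 15 pairs over 0.1. In 9 of 15 comparisons the closest of the 5 arrays of the other organ bore the same number. That is more often than an even pick among the 5 would give. The labels name no batch, so the main fit did not pair the samples. Whether same-numbered arrays share a batch was not tested. Over all alternatives the 12 called differences of single enzymes kept their call 262 times and lost it 38 times, the 15 others gained one 11 times, and no called difference changed sign.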
